A study of Mus musculus with 12 samples.

Results

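The monocyte group of Ms4a membrane proteins was followed in M-MDSCs, monocytic myeloid-derived suppressor cells, of young and aged bone marrow. The members were chosen by name. They are Ms4a4a, Ms4a4b, Ms4a4c, Ms4a6b, Ms4a6c, Ms4a6d and Ms4a7, and no measured value of these mice entered the rule itself. Of these 7 members, 6 had a row among the 23420 genes of the table, and Ms4a4a was not analysed here. Expression was high enough for the test across all genes in 4 of them, out of 9742 genes tested. The mice were male C57BL/6JNIA animals, 6 young (6 months) and 6 aged (24 months), with no transgene and no treatment in either group. The sort of the marrow took CD11b+Ly6G-Ly6Chi cells, the labels give the tibia as the source, and each mouse gave 1 RNA-seq library. The totals were 4613239 to 9079237 fragments in young mice and 8737941 to 16300374 in aged mice, so that the same level rested on more fragments in most aged mice.

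Ms4a genes encode small proteins that cross the cell membrane several times, and the mouse genes lie side by side in a cluster. The best known are Ms4a1, which encodes the B cell antigen CD20, and Ms4a2, which encodes the beta chain of the high-affinity IgE receptor of mast cells and basophils. The group followed here is known from monocytes and macrophages, apart from Ms4a4b, which is best known from T cells. Ms4a proteins sit beside signalling receptors in the membrane, and the products of Ms4a4a and Ms4a4b have been described as partners of the beta-glucan receptor Dectin-1 and of the receptor GITR, respectively. Ms4a7 is widely used as a marker of macrophages.

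The 6 members with a row lie within 283.8 kb of chromosome 19 (mm10). In order along the chromosome they are Ms4a7 (chr19:11321039-11336146, minus strand, 8 exons counted), Ms4a4c (chr19:11407661-11427246, plus strand, 7 exons) and Ms4a4b (chr19:11443558-11463548, plus strand, 7 exons). They continue with Ms4a6c (chr19:11469368-11482196, plus strand, 8 exons), Ms4a6b (chr19:11518559-11530403, plus strand, 7 exons) and Ms4a6d (chr19:11586606-11604804, minus strand, 7 exons). Some members are close copies. The coding sequences of Ms4a4b and Ms4a4c were 91.7% identical over 678 aligned bases, and those of Ms4a6b and Ms4a6c 86.4% over 641. Ms4a6d was 81.8% identical to Ms4a6b and 79.6% to Ms4a6c, and every other pair of the 7 members lay between 60.8% and 69.9%.

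The promoters carry the same pairing as the coding sequences. They are shown for the 2 pairs of close copies to let each copy be read beside the other. Each line gives the 250 bases before the gene start from RefSeq (GRCm38.p6), written 5′ to 3′ on the plus strand. Capitals mark GGAAGT, a core of ETS family binding sites, in all 4. They also mark GAGGAA, a core of sites of the myeloid factor PU.1, in the Ms4a4 pair and GAAANNGAA, a core of interferon response elements, in the Ms4a6 pair.
Ms4a4b (chr19:11443308-11443557): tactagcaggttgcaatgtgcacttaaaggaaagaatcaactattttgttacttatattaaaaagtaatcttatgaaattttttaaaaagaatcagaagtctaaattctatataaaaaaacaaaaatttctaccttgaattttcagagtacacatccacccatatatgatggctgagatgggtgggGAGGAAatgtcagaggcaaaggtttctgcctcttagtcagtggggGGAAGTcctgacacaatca
Ms4a4c (chr19:11407411-11407660): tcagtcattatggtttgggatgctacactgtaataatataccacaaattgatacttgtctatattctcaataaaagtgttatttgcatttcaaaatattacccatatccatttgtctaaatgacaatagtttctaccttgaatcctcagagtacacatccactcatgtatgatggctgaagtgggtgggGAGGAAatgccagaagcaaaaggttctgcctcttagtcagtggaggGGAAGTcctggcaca
Ms4a6b (chr19:11518309-11518558): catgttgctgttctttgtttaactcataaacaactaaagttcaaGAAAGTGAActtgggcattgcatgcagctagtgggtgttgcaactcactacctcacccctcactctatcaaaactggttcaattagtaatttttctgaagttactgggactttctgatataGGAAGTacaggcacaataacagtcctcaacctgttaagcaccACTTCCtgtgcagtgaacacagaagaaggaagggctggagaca
Ms4a6c (chr19:11469118-11469367): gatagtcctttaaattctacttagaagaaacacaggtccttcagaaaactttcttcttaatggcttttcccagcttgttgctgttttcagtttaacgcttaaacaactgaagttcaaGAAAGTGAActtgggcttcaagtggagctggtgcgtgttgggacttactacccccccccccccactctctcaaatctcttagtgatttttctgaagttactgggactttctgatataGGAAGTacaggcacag

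The Ms4a6b and Ms4a6c windows were 85.1% identical over 175 aligned bases, and the Ms4a4b and Ms4a4c windows 80.1% over 231. GAGGAA began 64 bases before the start of Ms4a4b and 61 bases before that of Ms4a4c. GAAANNGAA matched as GAAAGTGAA in both Ms4a6 windows, 206 bases before the start of Ms4a6b and 133 bases before that of Ms4a6c. Ms4a6b held GGAAGT on both strands. None of these letters is rare in promoters. Searched on both strands over windows of the same length, GGAAGT stood in 19.7%, GAGGAA in 23.3% and GAAANNGAA in 7.13% of 32851 mouse promoters, and GGAAGT and GAGGAA can overlap in GGAA. A match is a match of letters only.

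The sorted cells were first compared with their label. Itgam, which encodes CD11b, was at 2660 to 3543 CPM (counts scaled to the library total), and Ly6c2, which encodes the Ly6C of the sort, was at 367 to 799 CPM. By contrast, Ccr2, the chemokine receptor of classical monocytes, was at 5.03 to 62.0 CPM, and Csf1r, the M-CSF receptor, was at 93.1 to 205 CPM. Genes of neutrophils were far higher, with the granule gene Ngp at 24875 to 44393 CPM and S100a8 at 11517 to 41383 CPM. Per length the gap remained, with a young mean FPKM of 26652 for Ngp and 10.3 for Ccr2. The libraries held a small and uneven signal of monocyte genes beside a large signal of neutrophil genes, and every Ms4a member had a mean below that of Ccr2 per length at both ages. In bulk libraries, fewer cells of a type and less RNA per cell cannot be told apart. The S numbers in the names of the aligned files, whose meaning the headers do not give, are lower for all young mice than for all aged mice, so that a batch between them and age cannot be told apart.

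Per length, Ms4a6c had the highest mean of the members at both ages. It reached an FPKM (fragments scaled to exon length and library total) of 5.16 ± 1.53 (SD, n = 6) in young mice and 5.36 ± 3.71 in aged mice. In young mice the order went on with Ms4a4c at 3.28 ± 0.728, Ms4a6b at 2.33 ± 0.942 and Ms4a6d at 1.18 ± 0.446. Ms4a7 at 0.379 ± 0.165 and Ms4a4b at 0.277 ± 0.262 were last. In aged mice the levels after Ms4a6c ran close together, with Ms4a4c at 2.60 ± 1.77, Ms4a6d at 2.33 ± 1.73, Ms4a7 at 1.98 ± 2.35 and Ms4a6b at 1.89 ± 1.416. Ms4a4b remained last in aged mice at 0.0883 ± 0.0566. The aged SD intervals of Ms4a6c, Ms4a4c, Ms4a6d, Ms4a7 and Ms4a6b all overlapped. In young mice the SD intervals of neighbours in the order overlapped at Ms4a6c and Ms4a4c, at Ms4a4c and Ms4a6b, at Ms4a6b and Ms4a6d and at Ms4a7 and Ms4a4b, while Ms4a6d and Ms4a7 were separate.

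**Figure D1:**
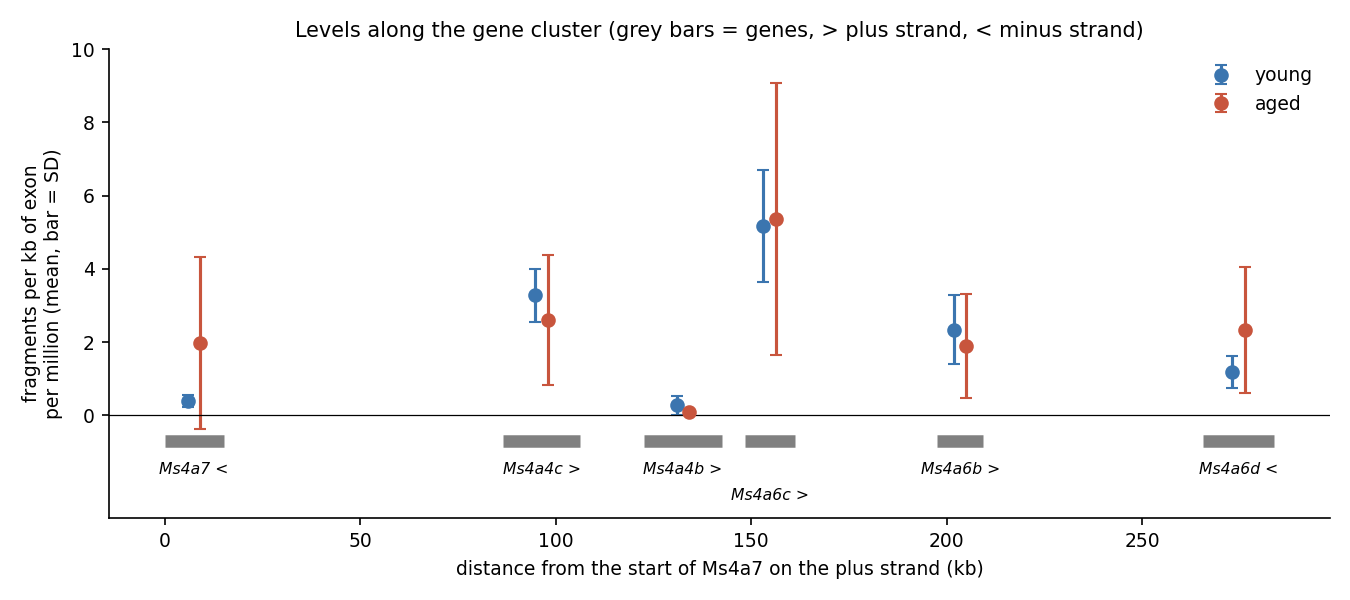
Mean level per length of each member (FPKM, bars are SD, n = 6 mice per age) against its distance from the start of Ms4a7 in kb. Ms4a6c was highest at both ages, at 5.16 in young and 5.36 in aged mice, and the SD of Ms4a7 in aged mice (2.35) exceeded its mean (1.98).

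To ask whether the members changed with age, aged mice were compared with young mice in a model fitted to the counts of all genes (edgeR, quasi-likelihood test, Benjamini-Hochberg adjustment over all 9742 genes). Of all genes tested, 45.4% passed an adjusted p of 0.05, with 22.4% higher and 23% lower in aged mice. None of the 4 tested members did, and none had an unadjusted p under 0.05 (limma-voom also called 0 of the 4). The values of the ages did not overlap in 21.8% of all genes tested. They overlapped in all 6 members with a row. The SD over mice of each of the 4 was larger in aged than in young mice, which was not tested. It was 3.04 against 1.25 CPM for Ms4a4c, 2.39 against 1.59 CPM for Ms4a6b, 7.61 against 3.14 CPM for Ms4a6c and 2.37 against 0.612 CPM for Ms4a6d.

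Ms4a4c ran from 3.71 through a median of 5.67 to 7.27 CPM in young mice, and from 0.535 through 4.37 to 8.97 CPM in aged mice. Both the lowest and the highest mouse were aged, numbers 4 and 2. The log2 fold change was -0.35 (SE 0.398, edgeR adjusted p = 0.487), with a 95% interval from -1.20 to 0.49.

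Ms4a6b, the smaller signal of the Ms4a6 pair, ran from 2.13 through 3.38 to 6.31 CPM in young mice. In aged mice it ran from 0.321 through 2.95 to 6.64 CPM, again with aged mouse 4 lowest and aged mouse 2 highest. The low value rested on 3 fragments, the floor below which a level cannot be told from none here. The log2 fold change was -0.34 (SE 0.465, edgeR adjusted p = 0.569), with a 95% interval from -1.33 to 0.65.

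Ms4a6c ran from 6.86 through 10.4 to 14.6 CPM in young mice, and from 2.25 through 11.5 to 19.2 CPM in aged mice. Here 3 aged mice (1, 2 and 7) lay above every young mouse, and 2 (4 and 6) lay below every young mouse. The log2 fold change was 0.03 (SE 0.416, edgeR adjusted p = 0.957), and its 95% interval, -0.85 to 0.92, leaves room for a change in either direction. Its sign was not stable (it was -0.34 in limma-voom).

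Ms4a6d, at the far end of the cluster and on the minus strand as Ms4a7 is, had another pattern. It ran from 0.977 through 1.502 to 2.60 CPM in young mice and from 1.02 through 2.87 to 7.25 CPM in aged mice. Aged mice 1, 2 and 7 lay above every young mouse, and the other 3 lay among the young. The log2 fold change was 0.94 (SE 0.443, unadjusted p = 0.051, edgeR adjusted p = 0.0956), with a 95% interval from -0.0044 to 1.88. The call depended on single mice: without aged mouse 4 the log2 fold change was 1.11 (adjusted p = 0.0467), without aged mouse 5 it was 1.13 (adjusted p = 0.0383), and without aged mouse 1, the highest, it was 0.55 (adjusted p = 0.268, edgeR). Without both aged mice 1 and 7 it was 0.24 (adjusted p = 0.646, edgeR).

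Ms4a7 was rarer, and the filter on low counts removed it from the main test. In young mice 1, 2, 5, 6, 9 and 10 it had 2, 5, 4, 6, 8 and 4 fragments. In aged mice 1, 2, 4, 5, 6 and 7 it had 101, 33, 10, 9, 9 and 40. Every aged mouse thus had more fragments than any young mouse, but scaled to the library total the ages overlapped, with 0.391 to 1.07 CPM in young and 0.832 to 11.3 CPM in aged mice. Without the filter on low counts the log2 fold change was 2.35 (SE 0.614, edgeR adjusted p = 0.00735), where 28.2% of 15827 genes were called. DESeq2, which called 37.9% of 12533 genes, gave 2.38 (SE 0.626, DESeq2 adjusted p = 0.000837). Leaving out aged mouse 1 as well as the filter lowered the edgeR value to 1.496 (adjusted p = 0.0189, with 26.5% of genes called). Ms4a7 was the 1 member called of 6 in each of these 3 fits.

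Ms4a4b, the close copy of Ms4a4c, was near the limit of detection. It had 0 to 7 fragments per young mouse (19 in all) and 0 to 2 per aged mouse (7 in all), and without a filter its log2 fold change was -1.71 (SE 0.727, edgeR adjusted p = 0.0886). Of the T cell genes, Cd3e had 0 to 1 fragments in every mouse and Cd3d 41 to 109.

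**Figure D2:**
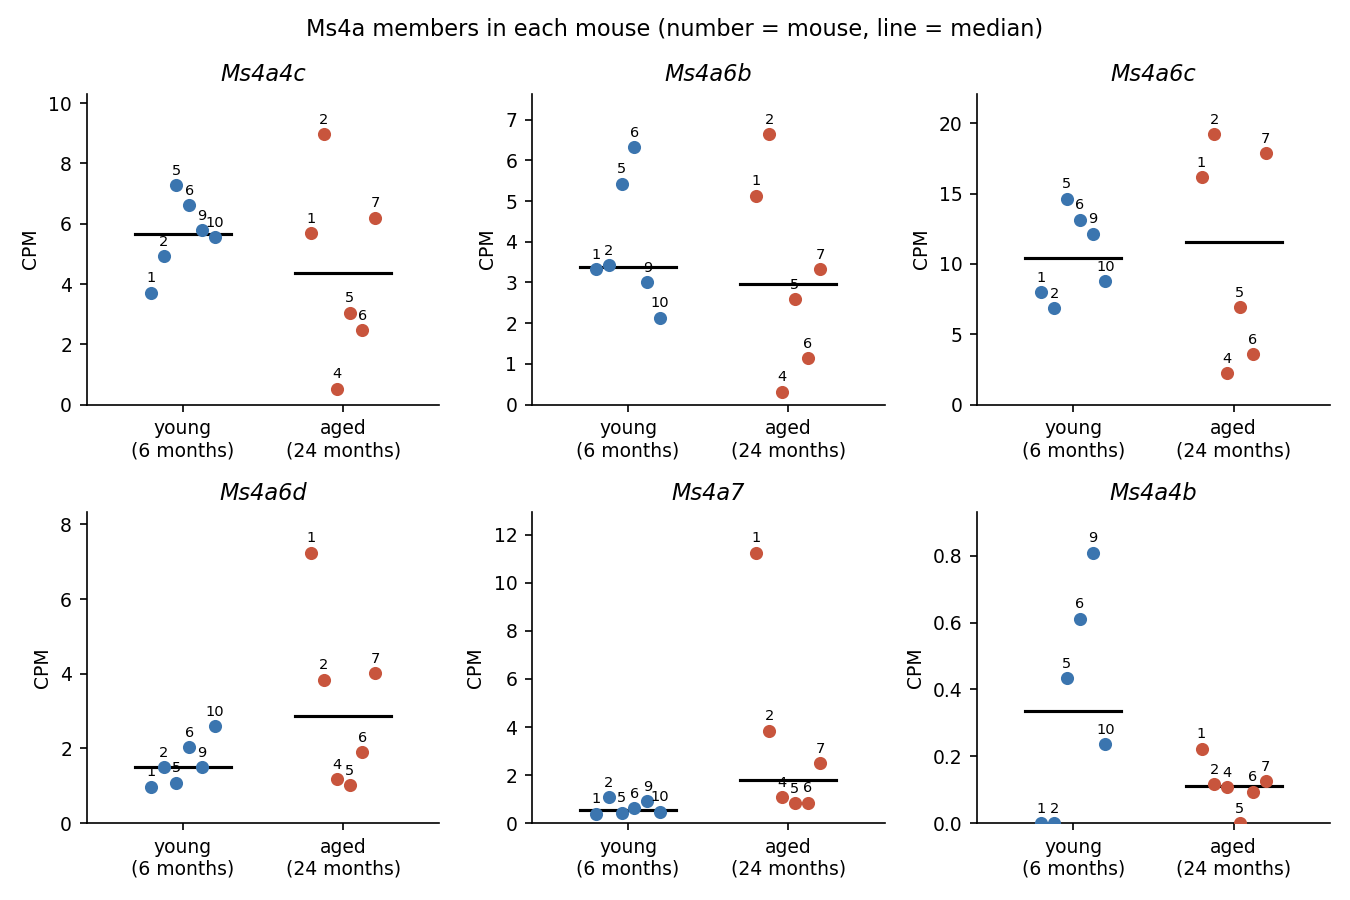
CPM of each member in each mouse by age; points are mice with their number, and lines are medians. Ms4a4c, Ms4a6b and Ms4a6c were lowest in aged mouse 4 (0.535, 0.321 and 2.25 CPM), whereas Ms4a6d and Ms4a7 were highest in aged mouse 1 (7.25 and 11.3 CPM).

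Reads of close copies can be lost or misplaced, since fragments had to map with a quality of at least 60. Of all stretches of 50 bases in the transcripts of Ms4a6c, 10.5% also occurred in another gene, most often Ms4a6b, and of those of Ms4a4c 8.19% occurred in another gene, most often Ms4a4b. For Ms4a6b the share was 3.57%, for Ms4a6d 2.54%, for Ms4a4b 2.4% and for Ms4a7 0.306%. Over 100 bases the highest share was 1.66%, in Ms4a4c. These shares are over all annotated transcripts of a gene, not only the exons counted, and cover exact matches only. They do not give the extent to which the level of a copy is uncertain, which was not tested.

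Ms4a4c, Ms4a6b and Ms4a6c went up and down together across the 12 mice. With the mean of each age removed, Pearson's r of log2 CPM was 0.932 between Ms4a4c and Ms4a6c (rho 0.979), 0.919 between Ms4a4c and Ms4a6b (rho 0.825) and 0.912 between Ms4a6b and Ms4a6c (rho 0.839). In permutation tests within the ages, adjusted over the 6 pairs of tested members, the p of r was 0.00054, 0.0015 and 0.0015 (unadjusted 9e-05, 0.00075 and 0.00063), and the p of rho was 0.00012, 0.00874 and 0.00874 (unadjusted 2e-05, 0.00437 and 0.00427). Without the 2 mice farthest from the median, aged 2 and aged 4, the r was 0.925, 0.739 and 0.810. Within an age it was higher in aged mice, at 0.945, 0.969 and 0.953, than in young mice, at 0.814, 0.515 and 0.6254, and this difference was not tested. These correlations were chosen after the values were seen.

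Ms4a6d was less tied to them. Its r was 0.679 with Ms4a4c, 0.564 with Ms4a6b and 0.683 with Ms4a6c (rho 0.685, 0.420 and 0.650), and the permutation p adjusted over the 6 pairs was 0.0922, 0.159 and 0.0994 for r (unadjusted 0.0615, 0.159 and 0.0829) and 0.0681, 0.252 and 0.0832 for rho (unadjusted 0.0454, 0.252 and 0.0693). Without the 2 mice farthest from the median of the other member, the r was 0.675, 0.375 and 0.590. These 2 mice were aged 2 and aged 4 for Ms4a4c and Ms4a6b, and aged 4 and aged 6 for Ms4a6c. Within young mice the r was 0.313, -0.293 and -0.0387, and within aged mice it was 0.735, 0.722 and 0.799.

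Next, the genes whose pattern was most like each member were listed, among the 9736 other genes with a mean of at least 1 CPM and with the age means removed. They are a description over 12 mice that share the same libraries. Ms4a4c was closest to S100a10 (r = 0.976), F13a1 (0.952) and Ccr2 (0.951). Ms4a6c was closest to Fn1 (0.963), F13a1 (0.960) and Ccr2 (0.956), and Ms4a6b to Ccr2 (0.940), Plekho1 (0.934) and Msr1 (0.925). Ccr2 thus stood among the 3 closest genes of all 3, and F13a1, coagulation factor XIII A and a gene of classical monocytes, among those of 2. For Ms4a6d the closest were Slbp (0.944), C1qb (0.942) and Cd5l (0.931), of which C1qb and Cd5l are genes of resident macrophages.

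The 3 co-varying members together were at 15.04 to 27.3 CPM in young mice and at 3.10 to 34.8 CPM in aged mice. Aged mouse 4 had the lowest sum, 3.10 CPM, and also the lowest Ccr2 (5.03 CPM) and F13a1 (2.57 CPM). Aged mouse 2 had the highest sum, 34.8 CPM, and the highest Ccr2 (62.0 CPM). Counted per 100 fragments of Ccr2, the spread between the highest and the lowest of the 12 mice fell from 16.8-fold to 2.19-fold for Ms4a4c, from 20.7-fold to 2.56-fold for Ms4a6b and from 8.56-fold to 2.13-fold for Ms4a6c. The same step widened the spread of Ms4a6d from 7.42-fold to 11.8-fold and that of Ms4a7 from 28.8-fold to 44.97-fold. Ccr2 was among the genes most like Ms4a4c, Ms4a6b and Ms4a6c in these same mice. Their narrower spread, and the contrast with Ms4a6d and Ms4a7, follow from that likeness and are no separate test. Relative to Ccr2, Ms4a4c had a median of 14.8 fragments per 100 in young and 13.8 in aged mice, and Ms4a6c had 28.4 and 32.6. Ms4a6d had 3.91 and 10.97, and Ms4a7 had 1.72 and 6.32.

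**Figure D3:**
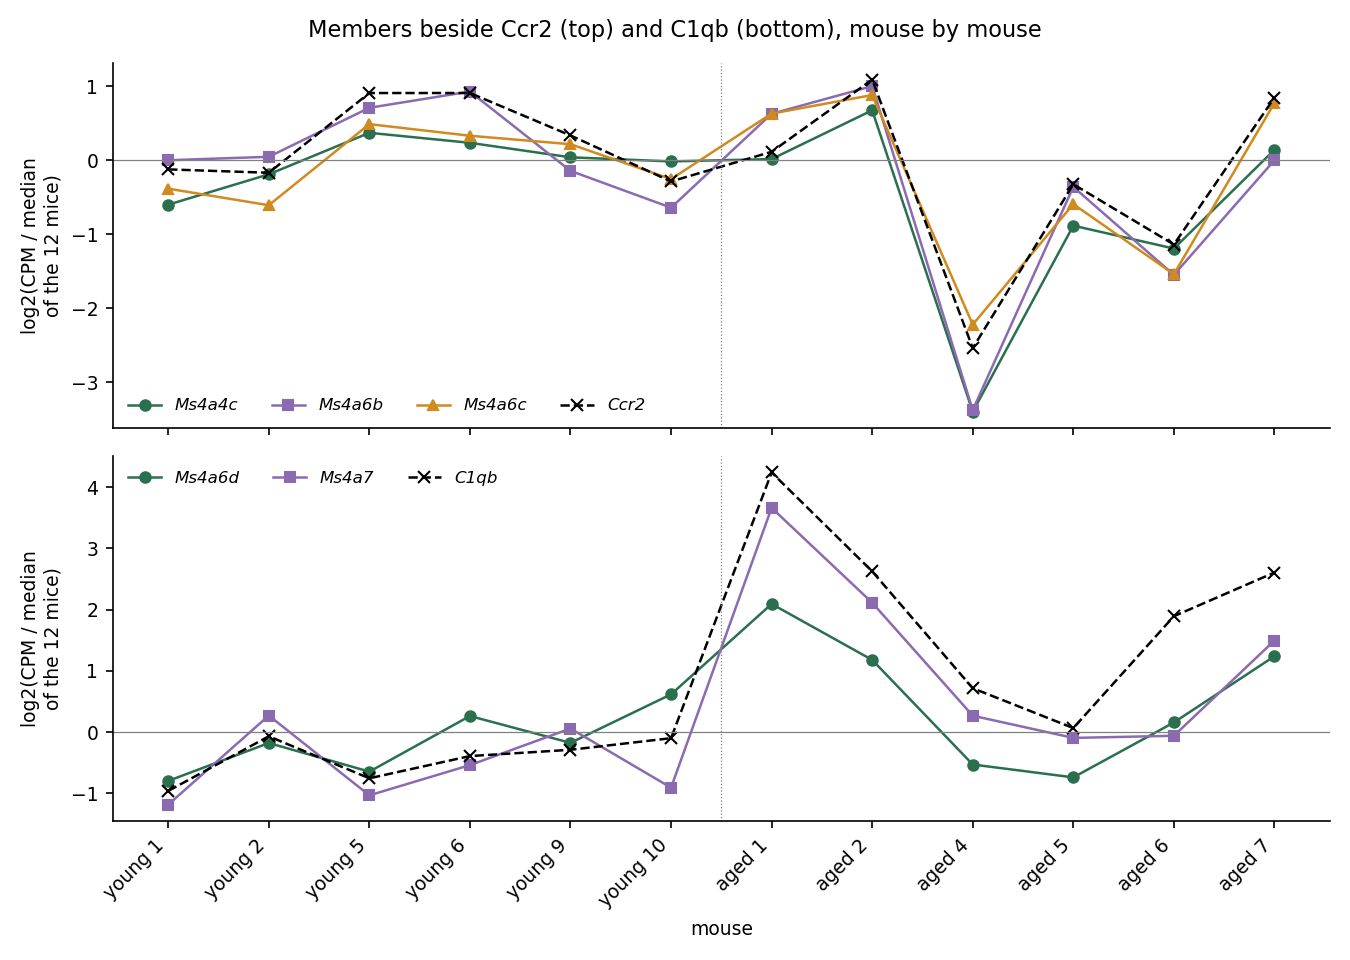
Level in each mouse as log2 of CPM over the median of the 12 mice, with Ms4a4c, Ms4a6b and Ms4a6c beside Ccr2 (top) and Ms4a6d and Ms4a7 beside C1qb (bottom). The top genes drop together in aged mouse 4 (Ccr2 5.03 CPM), and the bottom genes peak together in aged mouse 1 (C1qb 93.5 CPM).

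Whether members changed by different amounts was asked within each mouse, where a ratio of counts needs no scaling factor between libraries. Each count had 1 added, which weighs more where counts are low, and totals were lower in most young mice. The ratios were therefore not wholly free of depth. The log2 ratio of Ms4a6d to Ms4a4c was -1.75 ± 0.509 (SD, n = 6) in young and -0.39 ± 0.940 in aged mice. The difference of 1.36 had an exact permutation p of 0.00866 (two-sided, 924 regroupings, smallest possible p 0.00216), and an adjusted p of 0.0519 over the 6 pairs. Ms4a6d to Ms4a6b differed by 1.36 on the same scale (exact permutation p = 0.0346, adjusted p = 0.104), and Ms4a6d to Ms4a6c by 0.96 (exact permutation p = 0.0541, adjusted p = 0.108). Every aged mouse was above the young median in all 3 ratios, but the ages overlapped in each.

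Within the pair of Ms4a6 copies, Ms4a6c to Ms4a6b was 1.43 ± 0.450 in young and 1.83 ± 0.473 in aged mice, a difference of 0.40 (exact permutation p = 0.167, adjusted p = 0.200). Ms4a6c to Ms4a4c differed by 0.41 (exact permutation p = 0.0823, adjusted p = 0.123), and Ms4a6b to Ms4a4c by 0.01 (exact permutation p = 0.970, adjusted p = 0.970). No pair passed the threshold after adjustment. This turned on single mice, since Ms4a6d to Ms4a4c reached an adjusted p of 0.039 without aged mouse 5 and 0.026 without young mouse 10, Ms4a6d to Ms4a6b 0.039 without aged mouse 5, and Ms4a6c to Ms4a4c 0.026 without aged mouse 6 (exact permutation tests).

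**Figure D4:**
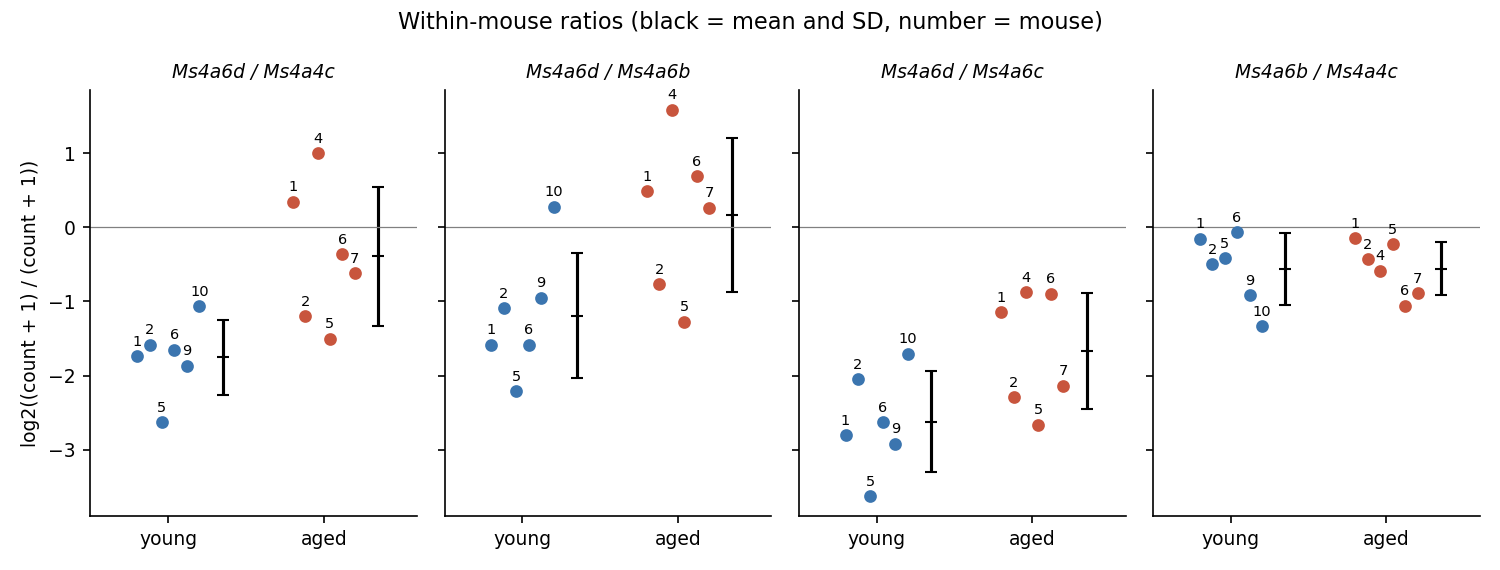
Within-mouse log2 ratios of the counts (each count + 1) for 4 pairs of members; points are mice with their number, and black marks are the mean and SD (n = 6). The ratios with Ms4a6d on top were higher on average in aged mice (-0.39 against -1.75 over Ms4a4c), and the ratio of Ms4a6b to Ms4a4c was not (-0.56 in both).

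Ms4a6d and Ms4a7 were read beside genes of resident macrophages, and the likeness of Ms4a7 to other genes was not computed. Of 15 such genes listed, 14 had a row and 12 could be tested. Aged mice were called higher in each of the 12, against 22.4% of all genes tested. The median log2 fold change was 2.49, against 0.006 over all genes (edgeR). Their summed level was 434 to 607 CPM in young mice and 671 to 1931 CPM in aged mice, with aged mouse 1 highest, as for Ms4a6d and Ms4a7. The smallest p was that of C1qc (3.32, SE 0.623, adjusted p = 0.000799), and the most abundant was the iron exporter Slc40a1 (0.31, SE 0.106, adjusted p = 0.0252, both edgeR). Slc40a1 alone was at 343 to 505 CPM in young and 443 to 609 CPM in aged mice, and made up most of the sum in young mice. The sum without it was not computed, so the summed level does not show how far the other listed genes separated the ages. C1qa, a chain of complement C1q, was at 1.76 to 3.86 CPM in young and 5.18 to 84.7 CPM in aged mice. Of the defining markers, Timd4 had 0 to 4 fragments in young and 2 to 52 in aged mice. The listed genes did not all follow the members. In aged mouse 7, Ms4a6d (4.01 CPM) lay above every young mouse, as did C1qb (30.1 CPM) and Cd5l (22.5 CPM). In the same mouse Cd163 (0.689 CPM) lay below every young mouse, and Siglec1 (5.14 CPM) and Spic (0.814 CPM) lay among the young. Of the 2 members, Ms4a7 remained called without aged mouse 1 (log2 fold change 1.496), and the part of macrophage RNA in either was not tested.

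Of the genes listed for other cell types, some were called higher and some lower. Over all genes tested, 45.4% were called, 22.4% higher and 23% lower in aged mice, and the counts below stand beside those shares. Of the classical monocyte genes, 9 were tested, 3 were called higher (smallest p in Cd14, log2 fold change 1.11, SE 0.175, adjusted p = 0.000249) and 1, Itgam, lower (-0.22, SE 0.0769, adjusted p = 0.0285, lost in 6 of the 12 fits without 1 mouse). Ly6c2 of the sort was among the higher (0.54, SE 0.122, adjusted p = 0.00265), and its call was lost with a correction for gene length (0.12, adjusted p = 0.301, edgeR). Ccr2 had a log2 fold change of -0.26 (adjusted p = 0.643). Of 9 tested genes of non-classical monocytes, 5 were called lower, among them the most abundant, Itgal (-0.16), the one with the smallest p, Cebpb (-0.43, adjusted p = 0.0123), Nr4a1 (-1.07, adjusted p = 0.0126) and Treml4 (-1.13, adjusted p = 0.0163), and 1, Cd36, higher (4.001, adjusted p = 0.00531, all edgeR). Both Nr4a1 and Treml4 lost their call without young mice 5 and 6 (adjusted p = 0.0616 and 0.221). Of the neutrophil genes 6 of 10 were called higher, with the smallest p in S100a8 (0.77, adjusted p = 0.00563, edgeR), and their sum was 90108 to 139582 CPM in young and 140938 to 165995 CPM in aged mice. It was lowest, among the young, in young mouse 5, where Ms4a4c and Ms4a6c were highest of the young. Of the lymphoid and granulocytic lists, basophil and mast cell genes (1 tested, Hdc at -0.10) and T and NK cell genes (2 tested, Cd3d at 0.02 and Nkg7 at 0.81) had no call. Nor had B cell genes (1 tested, Cd79b at 1.10, edgeR adjusted p = 0.0568), and Cd79a had 2 to 27 fragments per mouse. Of 4 tested dendritic cell genes 1 was called in each direction, H2-Aa higher and Clec9a lower. The part of each in the members' levels was not tested.

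Beyond the monocyte members, the family was measured with 15 further genes, of which 12 had a row. Only 3 were tested, and all 3 were higher in aged mice, against 22.4% of all genes tested (edgeR). Ms4a3, a gene of granulocyte-monocyte progenitors, was at 16.6 to 24.97 CPM in young and 22.7 to 32.0 CPM in aged mice (log2 fold change 0.44, SE 0.121, adjusted p = 0.00851). Its call was lost with a correction for gene length (0.09, adjusted p = 0.525), with every library thinned down to the depth of the smallest (0.38, adjusted p = 0.0569) and without young mice 5 and 6 (0.33, adjusted p = 0.0676, all edgeR). Of the 6 tested genes listed for such progenitors, Ms4a3 among them, 4 were called higher and none lower, and the smallest p was that of Prtn3 (1.54, SE 0.213, adjusted p = 9.54e-05, edgeR). Cebpe, the most abundant of these, was not called (0.04).

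Tmem176a and Tmem176b, relatives of the Ms4a genes on another chromosome, changed most of the 3. Tmem176a was at 0.586 to 1.30 CPM in young and 1.48 to 12.5 CPM in aged mice with no overlap (log2 fold change 2.15, SE 0.488, adjusted p = 0.00267). Tmem176b was at 1.71 to 5.09 CPM in young and 3.21 to 29.1 CPM in aged mice (1.80, SE 0.510, adjusted p = 0.0101, edgeR). Aged mouse 1 was highest in both, as in Ms4a6d and Ms4a7. Without aged mouse 1 the log2 fold change of Tmem176b was 1.19, still called. It lost its call in limma-voom (1.38, adjusted p = 0.0688) and without both aged mice 1 and 7 (0.97, adjusted p = 0.0577).

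The remaining family genes were too rare to test. Ms4a8a, known from macrophages, had 2 to 12 fragments in young and 7 to 68 in aged mice, with aged mouse 1 highest. Ms4a1 had 1 to 15 fragments per mouse and Ms4a2 1 to 18, so the B cell and mast cell genes of the family were at the level of a few fragments. Ms4a4d had at most 2 fragments, and 5 others (Ms4a5, Ms4a10, Ms4a13, Ms4a15 and Ms4a18) had 0 in all mice.

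**Figure D5:**
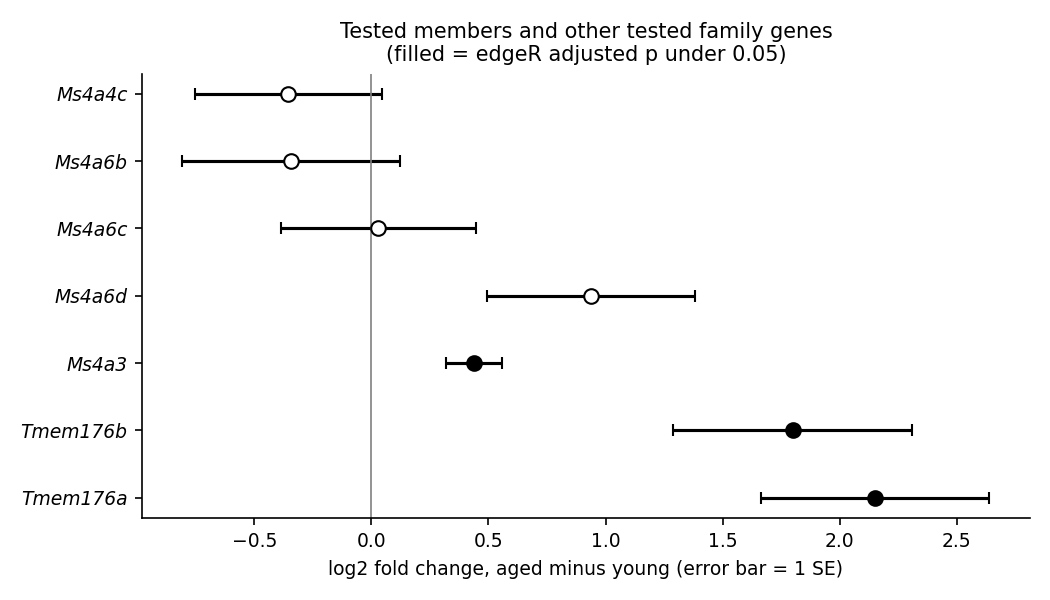
Log2 fold change, aged minus young, of the 4 tested members and the 3 other tested family genes; bars are 1 SE, and filled points have an edgeR adjusted p under 0.05. The members lie between -0.35 and 0.94 with open points, and Ms4a3, Tmem176b and Tmem176a lie at 0.44, 1.80 and 2.15 with filled points.

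Of 8 genes listed as partners of Ms4a proteins or their signalling, 6 were tested, 4 were called higher and 1 lower (edgeR). Over all genes tested, 22.4% were called higher and 23% lower. Clec7a, which encodes Dectin-1, was at 150 to 262 CPM in young and 169 to 485 CPM in aged mice (log2 fold change 0.69, SE 0.219, adjusted p = 0.019). Its call was lost without young mice 5 and 6 (0.46, adjusted p = 0.115). The adaptors Tyrobp (0.53, adjusted p = 0.0109) and Fcer1g (0.41, adjusted p = 0.0111) were also higher, but a correction for gene length turned both to -0.03 and -0.09. Tnfrsf18, which encodes GITR, was higher by 0.50 (adjusted p = 0.0454). Syk, the kinase downstream of Dectin-1, was lower by -0.52 (SE 0.0844, adjusted p = 0.000287) with no overlap between the ages. Vsig4, a receptor of resident macrophages, had no fragment in any young mouse and 200, 30, 7, 4, 12 and 12 in the aged mice in the order above.

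GAAANNGAA, shown above for Ms4a6b and Ms4a6c, also stood before Ms4a7, in the windows of both its starts in RefSeq (71 and 148 bases before them), and 20 interferon-stimulated genes were read beside these members. Of 17 tested, 12 (against 22.4% of all genes) were called higher in aged mice and 1, Mx1, lower, with a median log2 fold change of 0.97. The smallest p was that of Ifi47 (1.17, SE 0.189, adjusted p = 0.000283, edgeR). Their summed level was highest in aged mouse 5, at 1220 CPM, and 555 to 654 CPM in young mice. In that mouse Ms4a6b was at 2.59 CPM and Ms4a6c at 6.93 CPM, both below the median of the aged mice, and Ms4a7 was at 0.832 CPM, the lowest of the aged mice. Per 100 fragments of Ccr2, Ms4a6b was at 11.1 in that mouse, above the aged median of 9.64. Ms4a6c was at 29.8 (aged median 32.6) and Ms4a7 at 3.57 (aged median 6.32). These are values of a single mouse, and a part of interferon in the members' levels was not tested.

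Within 500 kb of the members' span the table has 41 other genes, of which 21 had no fragment in any mouse and 11 were tested. Of these 11, 3 were called higher in aged mice (Ms4a3, Ccdc86 with a log2 fold change of 0.44 and AW112010 with 2.73), 1 was lower (Patl1, -0.24), and 7 were not called (edgeR). Over all genes tested, 45.4% were called, 22.4% higher and 23% lower.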

How the data were processed

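The authors prepared stranded libraries from total RNA of the sorted cells, read both ends of each fragment on a NovaSeq and deposited whole-number counts of fragments per gene. Per the file headers, featureCounts 2.0.0 counted pairs over the exons of each mm10 gene, reverse-stranded, and dropped those with a mapping quality under 60. The aligner is not given in the sources used here. No sample column was left out (0 columns unused), and 0 rows lacked a gene name.

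Here the counts were filtered with filterByExpr, scaled with TMM and tested with edgeR 4.0.16 in R 4.3.3 (quasi-likelihood, adjustment over all 9742 genes, threshold 0.05). CPM are per TMM-scaled total, log2 CPM used a prior count of 2, and 3 fragments were taken as the floor. Such floors cover counting error only. The biological coefficient of variation was 15.7%. Ratios of members were tested by exact permutation over mice. Correlations used 100000 permutations within the ages. Motifs were searched in RefSeq promoters, which held 6 of the 7 members, and Ms4a6d had no entry. DESeq2 1.42.0, limma-voom (limma 3.58.1), other scalings, filters, thinning to 4613239 fragments, a correction for gene length (lowess span 0.3) and left-out mice were alternatives. The scripts were tested on simulated data.

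The members and all gene lists were chosen with earlier results of these data known. The genes named are all members, and of each list the most abundant gene, the smallest p in each direction and set markers, of which some are not reported here. Genes named beyond these, such as F13a1, Cd5l and Vsig4, were chosen after their values were seen. Replicates are separate mice, and mice of the same number in both ages are not paired by the labels.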

Additional observations from a re-analysis of the deposited data

Results flagged for a closer look

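In a group of 6 mice a value was singled out when its gap to the nearest other mouse took a larger part of the group's whole range than Dixon's critical value at 95% allows. Among 50 groups (25 genes at 2 ages) 10 values were. The rule would single out about 1 in 20 groups if these were independent and normally distributed. The genes were chosen with earlier results of these data known, and several peak in the same mouse. The 10 values can therefore not be read as more than chance gives. Ms4a7 in aged mouse 1 was the member among them, at 11.3 CPM with 3.85 CPM in the next mouse. The same mouse stood apart in Ms4a8a (7.58 CPM), Tmem176a (12.5 CPM), Tmem176b (29.1 CPM), C1qa (84.7 CPM), C1qb (93.5 CPM) and Treml4 (25.3 CPM). Aged mouse 7 stood apart in Itgam (3481 CPM), aged mouse 5 in Fcer1g (779 CPM) and young mouse 6 in Nr4a1 (105 CPM).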

How the results depend on the processing

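The number of members called was 0 in the main test and 1 with DESeq2, without the filter on low counts and without the filter and aged mouse 1 (Ms4a7 in each). It was 0 to 1 over the 12 fits that left out 1 mouse (Ms4a6d, without aged mouse 4 or 5). In the other alternatives with a fit it was 0. The sign of Ms4a6c turned in limma-voom (-0.34), without TMM factors (-0.051), with the gene length correction (-0.070), without both aged mice 1 and 7 (-0.46), without the filter and aged mouse 1 (-0.10) and in the replicate block (-0.15). It ranged from -0.18 to 0.24 with 1 mouse left out. Without young mice 5 and 6, an alternative chosen after seeing the data as was the one without the filter and aged mouse 1, Ms4a6b turned to 0.094, Ccr2 to 0.12 and Csf1r to -0.046. Csf1r was -0.0028 without TMM factors, -0.056 without the filter and aged mouse 1, and -0.064 to 0.17 with 1 mouse left out. Tyrobp and Fcer1g turned to -0.026 and -0.090 with the length correction. The cause was not tested for any of these.

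Leaving out 1 mouse moved the log2 ratio of Ms4a6b to Ms4a4c between -0.15 and 0.11, Ms4a6d to Ms4a4c between 1.09 and 1.59, Ms4a6d to Ms4a6b between 1.07 and 1.65 and Ms4a6c to Ms4a4c between 0.29 and 0.56. Without both aged mice 1 and 7, Ms4a6b to Ms4a4c was -0.0097. Without TMM factors 37.8% of calls were higher in aged mice, against 49.4%.

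Mice of the same number did not deviate together (r = -0.141, -0.0655, -0.245 and -0.246 for numbers 1, 2, 5 and 6). Mice of unlike number were not compared, so these values cannot decide whether the numbers pair mice. The replicate block over these 8 mice called 3446 genes, against 4394 without it in the same mice, and 0 members in both. Tmem176b, Itgam, Nr4a1 and Treml4 were not called in the replicate block (edgeR adjusted p = 0.117, 0.0825, 0.22 and 0.103).

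Depth limits Ms4a7 and Ms4a4b, Ms4a4c and Ms4a6b in aged mouse 4 (5 and 3 fragments) and Ms4a6d, which had 5 to 22 fragments in young mice and was no longer tested in thinned libraries.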
